A study of Homo sapiens with 8 samples.

Results

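The interaction of L1CAM knockdown and brain slice asks, gene by gene, whether the response of brain-metastatic lung cancer cells to brain tissue differed when L1CAM was depleted. It was computed for 13010 of the 23368 genes in the table, those with a mean normalized count of at least 10 over 8 libraries. Ribosome-bound RNA came from H2030-BrM, a line of brain-seeking cells selected from H2030 human lung adenocarcinoma. All cells carried pLVX-EGFP-Rpl10a-IRES-hygro, an EGFP-tagged protein of the large ribosomal subunit, so an anti-EGFP antibody could pull their ribosomes and the bound messages out of a lysate that also held mouse tissue. The group shControl_dish carried Luciferase shRNA and was taken from a petri-dish at 0 h, and shControl_slice carried the same shRNA and spent 48 h on a mouse organotypic brain slice. The groups shL1CAM_dish and shL1CAM_slice carried L1CAM shRNA and were otherwise handled in these same ways. Each group had 2 libraries, labelled as biological replicates. Nothing states that they came from separate cultures, so p-values measure only the spread between these samples. The labels name 1 shRNA per target and 1 cell line. Medium, serum, substrate and time all differed together between dish and slice, and a lower share of some cells cannot be told apart from less of an RNA per cell.

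L1CAM is a neural cell adhesion molecule of the immunoglobulin superfamily that binds itself and integrins outside the cell and links to ankyrin, and through it to spectrin and actin, inside. In brain metastasis it is known for helping cancer cells spread along the outer surface of brain capillaries, and for acting upstream of the growth regulators YAP and MRTF. The slice response of a gene is written here as the mean of log2(normalized count + 1) on the slice minus that in the dish. The interaction is the slice response with L1CAM shRNA minus that with control shRNA, so a value of 1 means that the slice-to-dish ratio was 2 times as high in the L1CAM shRNA cells. The same number is the knockdown effect on the slice minus the knockdown effect in the dish. Slice responses and knockdown effects are given as values without a test, and only the interaction was tested. Where 8 normalized counts of a gene are listed, they run from dish replicates 1 and 2 to slice replicates 1 and 2 with control shRNA, and then in the same order with L1CAM shRNA.

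The libraries held 13486212 to 16734651 reads, and a count of 0 allows a level of up to 3 reads, which was 2.75 to 3.57 normalized counts. Such limits cover counting error only. Replicate 2 of shL1CAM_slice stood apart from the other 7 libraries. Its log2 difference from replicate 1 had an SD over genes of 0.637, against 0.218 to 0.303 for the replicates of the other groups, and 1217 genes differed by more than 1 on the log2 scale between its replicates, against 86 to 152 in the others. In replicate 2 the tenth of genes with the shortest transcripts deviated from the genes' own means by a median of 0.52 and the tenth with the longest by -0.68. In the other libraries these medians were -0.16 to -0.01 and 0.05 to 0.17. Median interactions of lists are therefore also given with replicate 1 and with replicate 2 of shL1CAM_slice alone. The same holds for the named genes whose interaction moved by over 1.5 times between either replicate and both. As a stricter description than the mean, 16 single-library interactions were formed per gene, each from 1 library of each group.

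No gene passed the test. In limma's test with Benjamini-Hochberg adjustment over 13010 genes, 0 genes (0%) had an adjusted p under 0.05, and the smallest adjusted p was 0.970. An unadjusted p under 0.05 was reached by 162 genes (1.25%), 77 of them with a higher slice response in L1CAM shRNA cells (0.592%) and 85 with a lower one (0.653%). The count tests on recovered reads called 0 genes as well, with 157 genes at an unadjusted p under 0.05 by edgeR's quasi-likelihood test and 78 by DESeq2. The median SE of an interaction was 0.29 on the log2 scale, and the SD of the interaction over genes was 0.356. By comparison the slice response itself had an SD over genes of 0.558 with control shRNA and 0.633 with L1CAM shRNA. Interactions beyond 1 in size, in either direction, were seen for 223 genes (1.71%).

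The choice of shL1CAM_slice library changed this picture more than any other choice tried. With replicate 1 alone 0 genes passed the test, 474 had an unadjusted p under 0.05 by limma and the smallest adjusted p was 0.352. With replicate 2 alone 4136 genes passed in limma, 1796 higher (13.8%) and 2340 lower (18%), with a smallest adjusted p of 3.06e-08. These fits take the single remaining library to vary as the other groups do, and the larger difference between the replicates of shL1CAM_slice then does not enter the spread. The genes called higher from replicate 2 had a median transcript length of 1843 nt and those called lower 6050.5 nt, against 3442 nt over all genes. The SD over genes was 0.298 from replicate 1 alone and 0.606 from replicate 2 alone.

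**Figure D1:**
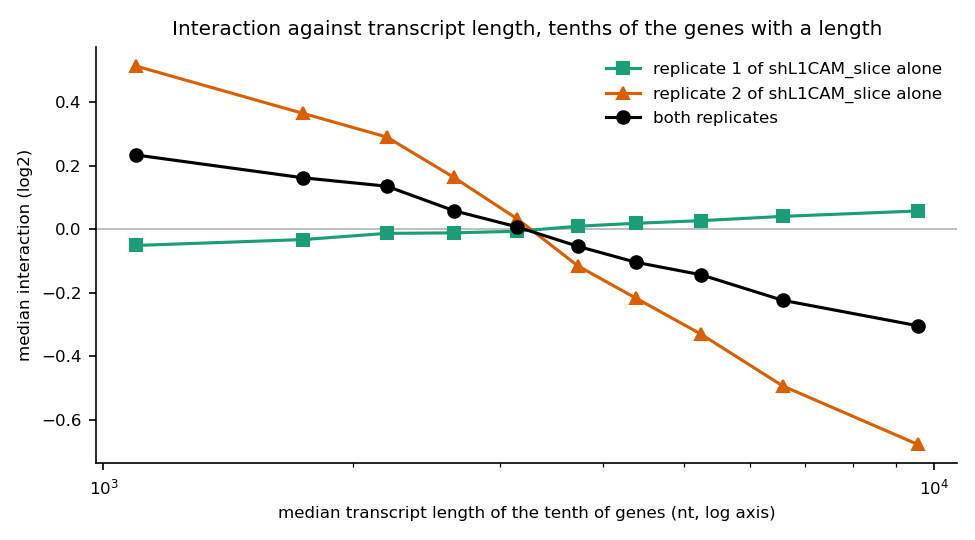
Median interaction (log2, vertical axis) in 10 groups of genes ordered by transcript length, at the median length of each group (horizontal log axis, nt), for the mean of both shL1CAM_slice replicates (circles), replicate 1 alone (squares) and replicate 2 alone (triangles). From the shortest to the longest group the median runs from 0.51 to -0.68 with replicate 2 and from -0.05 to 0.06 with replicate 1.

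Across the 12470 genes with a transcript length, Spearman's rho between length and interaction was -0.61 with replicate 2 alone, 0.16 with replicate 1 alone and -0.50 with both. The points are genes that share the 8 libraries, so these are descriptions. The tenth of shortest transcripts, with a median length of 1093 nt, had a median interaction of 0.23 with both replicates, and the tenth of longest, with a median of 9564 nt, had -0.30. The plot of interaction by transcript length shows that replicate 2 sets this slope. Whether the difference lay in the cells or in the handling of that library cannot be told apart here.

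**Figure D2:**
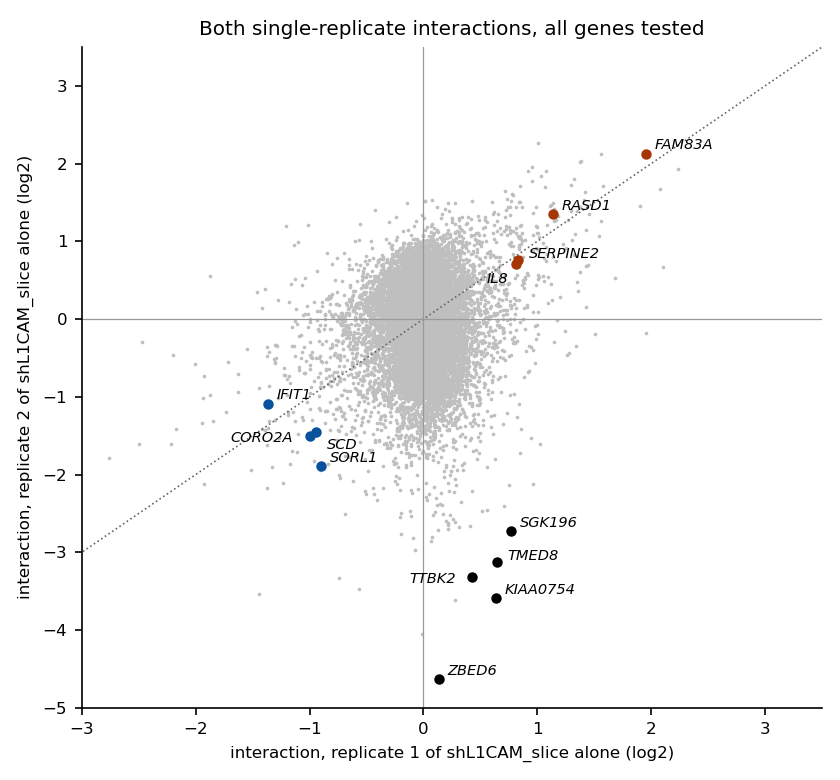
Interaction of each of 13010 genes with replicate 1 of shL1CAM_slice alone (horizontal axis, log2) and with replicate 2 alone (vertical axis, log2); the dotted line marks equal values, and both axes share the dish and control libraries. FAM83A, RASD1, SERPINE2 and IL8 are high and IFIT1, CORO2A, SCD and SORL1 low with either replicate, while ZBED6, KIAA0754, TMED8, TTBK2 and SGK196 are low with replicate 2 only.

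Genes with all 16 single-library interactions on the same side of 0 were more limited in number. All 16 were above 0 for 704 genes (5.41%) and below 0 for 721 (5.54%). All 16 were above 1 for 1 gene (0.00769%), FAM83A, and below -1 for 7 genes (0.0538%). These 7, COL4A3, POSTN and SEMA3E among them, all had means under 50 normalized counts. The named genes that follow have a mean of at least 50 and the highest or lowest interaction by the single-library value closest to 0, unless stated otherwise. None of them passed the test.

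L1CAM itself, the target of the shRNA, had normalized counts of 482 and 440, then 451 and 438 on the slice with control shRNA, and 126 and 88.3, then 74.7 and 65.4 with L1CAM shRNA. The 4 libraries with L1CAM shRNA lay below the 4 with control shRNA in either culture, as the labels say. Its interaction was -0.54 ± 0.29 (SE), with all 16 single-library values between -0.97 and -0.10. It did not pass the test either. The knockdown effect was -2.11 in the dish and -2.65 on the slice.

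First among the higher genes by that ranking was FAM83A, whose product is an adaptor of epidermal growth factor receptor and RAS-MAPK signalling. Its counts were 30.3 and 26.4, then 265 and 233 on the slice with control shRNA, and 12.8 and 6.02, then 325 and 366 with L1CAM shRNA. The L1CAM shRNA cells thus started lower in the dish and ended higher on the slice, with no overlap between any 2 groups. The slice response was 3.09 with control shRNA and 5.13 with L1CAM shRNA, an interaction of 2.04 ± 0.44 (SE), and it was 1.95 and 2.13 with replicate 1 and 2 of shL1CAM_slice alone.

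RASD1, a small RAS-like GTPase inducible by glucocorticoids, showed the same crossing. Its counts were 60.6 and 59.4, then 61.1 and 66.3 on the slice with control shRNA, and 33.9 and 29.1, then 74.7 and 86.9 with L1CAM shRNA. Control cells stood at nearly the same level in both cultures, while the L1CAM shRNA libraries were lowest in the dish and highest on the slice. The interaction was 1.25 ± 0.31 (SE).

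Several regulators had control levels that were flat or lower on the slice and L1CAM shRNA levels that were higher there. MNX1, a homeobox factor of motor neuron and pancreatic development, had counts of 46.0 and 49.0, then 29.6 and 27.8 on the slice with control shRNA, and 56.8 and 74.3, then 80.3 and 73.8 with L1CAM shRNA. Its lowest group was control cells on the slice, and the L1CAM shRNA groups touched each other between 73.8 and 74.3. The interaction was 0.95 ± 0.33 (SE). PRR5, a subunit of the growth-controlling kinase complex mTORC2, had counts of 95 and 129 in shL1CAM_slice against 52.2 to 68.5 in the other 6 libraries, with an interaction of 0.97 ± 0.32 (SE). The PRR5 exons are shared with a read-through transcript, PRR5-ARHGAP8. PPP1R14C, an inhibitor of protein phosphatase 1, had 137 and 148 in shL1CAM_slice against 72.4 to 109 elsewhere, and an interaction of 0.92 ± 0.29 (SE). In both genes the L1CAM shRNA libraries lay below all 4 control libraries in the dish and above them on the slice. The zinc finger gene ZNF324B (0.86 ± 0.30, SE) and the long noncoding RNA CRNDE (0.87 ± 0.31, SE) had lower control levels on the slice than in the dish. CRNDE stood at 55.4 and 65.3 in shControl_slice and 109 and 113 in shL1CAM_slice, with 76.9 to 93.3 in the 4 dish libraries.

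SERPINE2, which encodes the secreted serpin protease nexin-1, an inhibitor of thrombin and plasminogen activators, was, with IL8, among the most abundant of the 12 higher genes. Its counts were 2103 and 2147, then 2492 and 2319 on the slice with control shRNA, and 1966 and 1687, then 3671 and 3473 with L1CAM shRNA. Both shL1CAM_slice libraries lay above every other library and both shL1CAM_dish libraries below. The slice response was 0.18 with control and 0.97 with L1CAM shRNA, and the interaction of 0.79 ± 0.20 (SE) was 0.83 and 0.75 with either replicate alone. PLAU, the urokinase-type plasminogen activator that such serpins restrain, lay on the opposite side. Its counts were 72.4 and 80.2, then 94.5 and 89.9 on the slice with control shRNA, and 206 and 157, then 110 and 88.0 with L1CAM shRNA. The shL1CAM_dish libraries alone stood out, and on the slice the 2 shRNAs overlapped, giving an interaction of -1.13 ± 0.31 (SE). An antisense gene, C10orf55, overlaps PLAU, and the library kit does not mark strand, so reads of these genes cannot be told apart. The same limit holds for FAM83A, CNIH2 and ITGA10, which an antisense gene also overlaps. Over the 9 tested serpins and plasminogen activators the median interaction was -0.01, at -0.18 with replicate 1 alone and 0.47 with replicate 2. In all 16 values 1 member was above 0 (5.41% of all genes) and 2 were below (5.54%).

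C5orf62 and CNIH2 completed the higher set beside S100A8 and IL8. C5orf62, which encodes a small membrane protein, had 479 and 470 in shControl_slice and 734 and 738 in shL1CAM_slice, from dish levels of 212 to 231 with either shRNA. Its replicates were close in every group and its interaction was 0.63 ± 0.21 (SE). CNIH2, an auxiliary protein of AMPA-type glutamate receptors, had 111 and 110, then 120 and 135 with control shRNA, and 58.6 and 62.2, then 107 and 124 with L1CAM shRNA. Here the knockdown difference lay in the dish, and on the slice the groups overlapped.

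**Figure D3:**
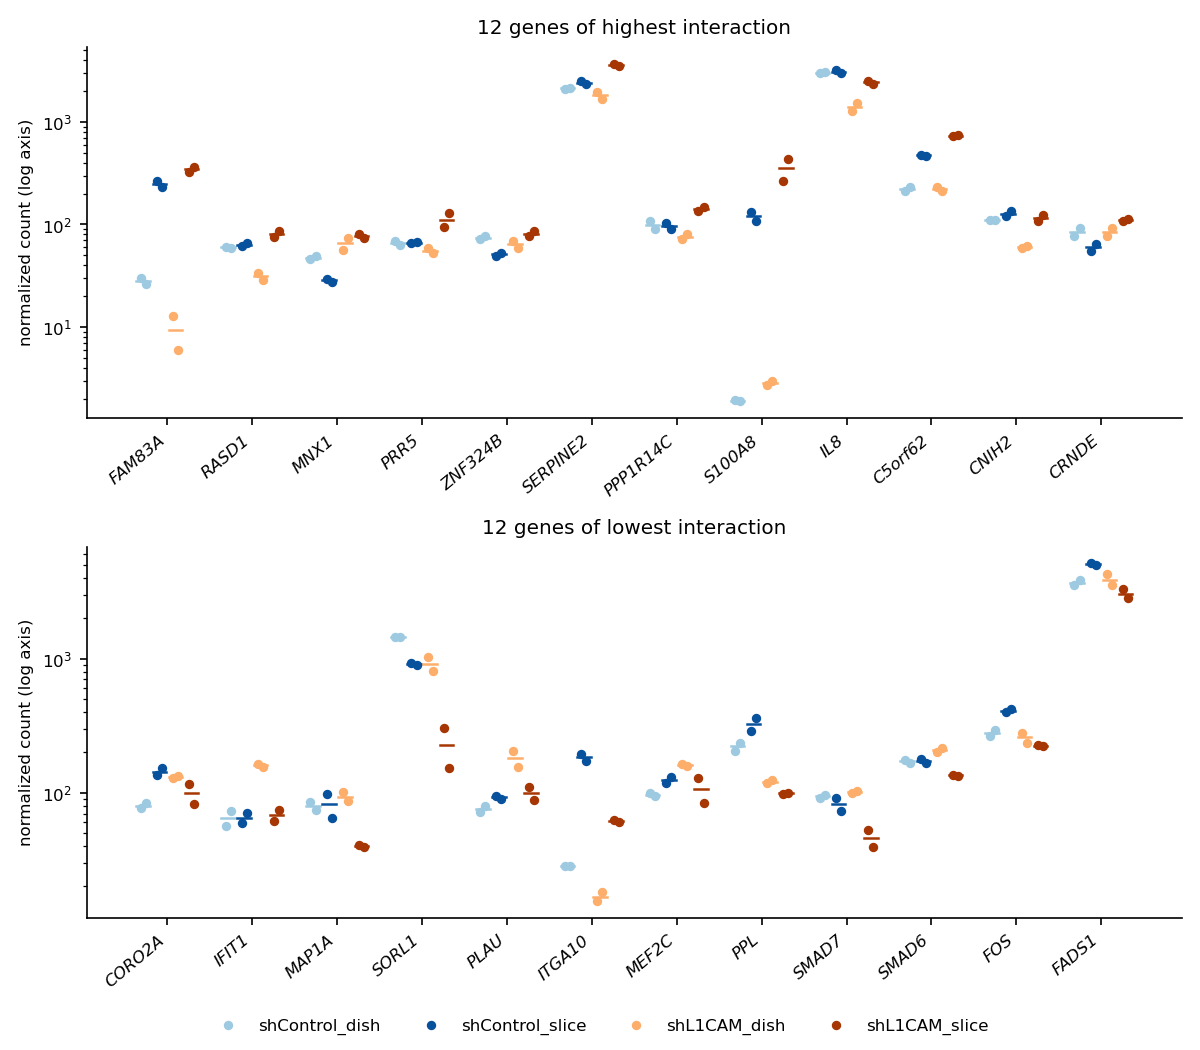
Normalized count (log axis) in every library for the 12 genes with the highest (top) and the 12 with the lowest (bottom) interaction among genes with a mean of at least 50; points are libraries and horizontal bars the means of 2. In the top panel the step from shL1CAM_dish to shL1CAM_slice is larger than that between the control groups, for instance from 12.8 and 6.02 to 325 and 366 in FAM83A, and in the bottom panel it is lower, for instance from 164 and 157 to 61.8 and 75 in IFIT1.

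The S100 proteins are small calcium-binding proteins, and S100A8 and S100A9 form the inflammatory heterodimer calprotectin. S100A9 had counts of 254 and 447, then 17392 and 16113 on the slice with control shRNA, and 186 and 103, then 14596 and 25810 with L1CAM shRNA. The slice groups overlapped and the dish groups did not. The interaction was 1.49 ± 0.51 (SE), with single-library values from 0.20 to 2.78. S100A8 had 133 and 108 in shControl_slice and 268 and 435 in shL1CAM_slice, above dish counts of 1.89 to 3.01 that are 3 reads or fewer, so its interaction of 1.09 ± 0.45 (SE) depends on the pseudocount. S100A3, at 3.01 to 5.66 in the dish libraries, 13.4 and 7.49 in shControl_slice and 19.4 and 22.6 in shL1CAM_slice, had 1.52 ± 0.58 (SE). Among the 11 tested S100 genes these 3 were above 0 in all 16 values (5.41% of all genes) and 0 were below (5.54%). With replicate 1 alone 3 were above and 4 below throughout, against 15.4% and 15.1% of all genes. With replicate 2 alone 8 were above and 0 below, against 33.4% and 34.7%. Without the length trend 3 were above and 2 below, against 6.31% and 6.34%. The median of the family was 0.29 with both replicates, -0.08 with replicate 1, 0.65 with replicate 2 and 0.06 without the length trend. These transcripts are short, with a median of 686 nt. How many reads of these genes came from the mouse tissue was not tested.

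The transcription factor NF-kB drives many inflammatory genes, and some of them had higher slice responses in the L1CAM shRNA cells. Its target IL8 (CXCL8), a chemokine for neutrophils, had 2986 and 3055, then 3214 and 2962 on the slice with control shRNA, and 1286 and 1520, then 2510 and 2326 with L1CAM shRNA. Control cells overlapped between cultures, while L1CAM shRNA cells were lower in the dish and nearer to control on the slice. The interaction was 0.76 ± 0.20 (SE), and 0.81 and 0.70 with either replicate alone. TNFAIP3, which encodes the NF-kB inhibitor A20, had 178 and 169, then 71.6 and 82.4 with control shRNA, and 92.5 and 99.4, then 80.3 and 64.3 with L1CAM shRNA. Its slice groups overlapped, its dish groups did not, and its interaction was 0.75 ± 0.29 (SE). CXCL2, another neutrophil chemokine, had 0.64 ± 0.31 (SE) and the same dish difference, with 245 and 250 against 86.1 and 122. IL18, a cytokine activated by inflammasomes, went the other way at -0.43 ± 0.23 (SE), with 1364 to 1508 counts in the control libraries and 245 to 354 in those with L1CAM shRNA. It was -0.62 with replicate 1 alone and -0.25 with replicate 2. Of 28 tested genes of the NF-kB list, 4 were above 0 in all 16 values (5.41% over all genes) and 1 below (5.54%). The median was 0.07, at 0.04 with replicate 1 alone and 0.20 with replicate 2.

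The upstream stretches of IL8 and TNFAIP3 are shown because both genes carry an exact match to an NF-kB-type motif there. They are the 250 bases before the annotated start in RefSeq on GRCh38.p14, plus strand, 5′ to 3′, at chr4:73740319-73740568 for IL8 and chr6:137867009-137867258 for TNFAIP3. Capitals mark TGACTCA (AP-1 type) and GGAATTTCC in IL8, and GGACTTTCC on the minus strand in TNFAIP3, which reads as its reverse complement.
IL8: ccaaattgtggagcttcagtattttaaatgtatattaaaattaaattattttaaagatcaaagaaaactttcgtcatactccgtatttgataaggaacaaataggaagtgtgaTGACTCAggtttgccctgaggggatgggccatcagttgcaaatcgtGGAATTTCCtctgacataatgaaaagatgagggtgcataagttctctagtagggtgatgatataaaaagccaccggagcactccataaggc
TNFAIP3: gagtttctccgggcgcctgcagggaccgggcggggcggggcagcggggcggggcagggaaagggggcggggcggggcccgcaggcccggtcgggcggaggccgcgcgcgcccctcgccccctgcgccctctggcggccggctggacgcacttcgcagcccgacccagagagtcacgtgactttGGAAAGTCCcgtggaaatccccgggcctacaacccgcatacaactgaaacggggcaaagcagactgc
Searched on both strands over the same 250 bases of 35116 RefSeq promoters, GGAATTTCC was in 0.413%, GGACTTTCC in 0.333% and TGACTCA in 4.20%. The motifs do not overlap each other in these stretches. A match describes the sequence only, and no binding was measured.

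Immediate early genes, which respond within minutes to growth factors and stress, were split. FOS, the AP-1 subunit, had 264 and 296, then 401 and 418 on the slice with control shRNA, and 281 and 237, then 227 and 222 with L1CAM shRNA. The dish groups overlapped and the control slice libraries stood above all others, an interaction of -0.75 ± 0.23 (SE). Its relative FOSB had the opposite sign, 1.09 ± 0.41 (SE), with 53.8 and 44.3, then 33.4 and 30.0, against 23.8 and 16.1, then 25.8 and 29.7. KLF2, a zinc finger factor best known from endothelium, had -0.80 ± 0.34 (SE), at -1.12 with replicate 1 alone and -0.48 with replicate 2. HBEGF, a ligand of the epidermal growth factor receptor known as a mediator of brain metastasis, had 0.68 ± 0.25 (SE). HBEGF stood at 433 and 362, then 261 and 241 with control shRNA and at 172 to 209 in the 4 libraries with L1CAM shRNA. Among 25 tested immediate early genes 4 were above 0 (5.41% of all genes) and 3 below (5.54%) in all 16 values. Their median was 0.14, at 0.08 with replicate 1 alone and 0.37 with replicate 2.

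Among the genes with a low interaction, CORO2A, an actin-binding coronin, came first. It had 76.3 and 83.9, then 136 and 152 on the slice with control shRNA, and 129 and 133, then 117 and 82.1 with L1CAM shRNA. The direction between the cultures was opposite for the shRNAs in every pair of libraries, and the interaction was -1.25 ± 0.31 (SE), at -0.998 with replicate 1 alone and -1.51 with replicate 2. MAP1A, a microtubule-associated protein of neurons, had 40.6 and 39.3 in shL1CAM_slice against 65.3 to 101 in the other 6 libraries (-1.21 ± 0.35, SE). SORL1, a sorting receptor of the endosome, had 1448 and 1463, then 925 and 892 with control shRNA, and 1029 and 804, then 304 and 152 with L1CAM shRNA. Its slice response was -0.68 with control and -2.07 with L1CAM shRNA. Its interaction was -0.90 with replicate 1 alone and -1.89 with replicate 2, and its transcript is 10904 nt long.

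Adhesion and cytoskeletal genes made up part of the lower set. ITGA10, the collagen-binding integrin alpha 10, had 28.4 and 28.3, then 195 and 172 with control shRNA, and 15.6 and 18.1, then 62.7 and 60.7 with L1CAM shRNA. It was higher on the slice with either shRNA, less so with L1CAM shRNA, and no groups overlapped (-0.83 ± 0.32, SE). PPL, the desmosome-linked periplakin, had 206 and 237, then 291 and 359 with control shRNA, and 118 and 123, then 98.7 and 98.8 with L1CAM shRNA. The gap between the shRNAs was there in the dish and wider on the slice (-0.84 ± 0.26, SE). Over the 22 tested integrins and adhesion components the median was -0.22, at -0.07 with replicate 1 alone and -0.36 with replicate 2. In all 16 values 0 were above 0 (5.41% of all genes) and 3 below (5.54%).

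The list of the L1 family, ankyrins and spectrins, which also held CNTN1, MSN and RDX but not L1CAM itself, had a median of -0.32 over 14 tested genes. Of these, 0 were above (5.41% of all genes) and 3, CNTN1, NFASC and MSN, below 0 (5.54%) in all 16 values. CNTN1, the contactin that partners L1-type molecules, had 39.1 and 50.9, then 25.8 and 28.9 with control shRNA, and 164 and 139, then 61.8 and 39.3 with L1CAM shRNA. It was higher in L1CAM shRNA cells in both cultures and its interaction was -0.91 ± 0.40 (SE), at -0.59 with replicate 1 alone and -1.23 with replicate 2. NFASC, the L1-family member neurofascin, had -0.67 ± 0.37 (SE), and -0.35 without the length trend. MSN, the membrane-actin linker moesin, had -0.54 ± 0.29 (SE), at -0.25 with replicate 1 alone and -0.83 with replicate 2. The list's median transcript was 7287 nt long, and its median interaction was -0.06 with replicate 1, -0.59 with replicate 2 and -0.13 once a length trend was removed from each library.

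Genes of cholesterol synthesis, most of them targets of the transcription factor SREBF2, leaned toward lower slice responses with L1CAM shRNA. Of 23 tested, 12 were below 0 in all 16 values (52.2%, against 5.54% of all genes) and 0 were above (5.41% of all genes). The median interaction was -0.29, and it was -0.31 with replicate 1 alone, -0.35 with replicate 2 alone and -0.29 without the length trend. The members below 0 in every single-library value numbered 20 with replicate 1 (15.1% of all genes), 14 with replicate 2 (34.7% of all genes) and 11 without the length trend (6.34% of all genes). Above 0 throughout were 0 with replicate 1 (15.4% of all genes) and 0 without the length trend (6.31% of all genes). With replicate 2, 7 members were above 0 throughout, near the 33.4% over all genes. The median knockdown effect on these genes was 0.30 in the dish and 0.03 on the slice against 0.01 and -0.00 over all genes.

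INSIG1, which holds the SREBP proteins back in the endoplasmic reticulum, had counts of 387 and 576, then 836 and 831 on the slice with control shRNA, and 865 and 714, then 833 and 795 with L1CAM shRNA. Only the control dish libraries were low, the others overlapped, and the interaction was -0.77 ± 0.29 (SE). DHCR7, the reductase of the last step to cholesterol, had 1181 and 1292, then 1311 and 1356, against 2070 and 1646, then 1311 and 1408. Here the L1CAM shRNA dish libraries were the high ones (-0.55 ± 0.22, SE). LSS, lanosterol synthase, had -0.51 ± 0.23 (SE) and IDI1, an isomerase of the isoprenoid steps, -0.47 ± 0.19 (SE), with all 16 values of IDI1 between -0.59 and -0.36. HMGCS1, a synthase early in the pathway, had -0.62, at -0.28 with replicate 1 alone and -0.97 with replicate 2. PMVK, EBP, ACAT2 and TM7SF2 were the members with a mean interaction above 0, at 0.10 to 0.23, and none of these 4 was above 0 in all 16 values. With replicate 1 alone all 4 were below 0, at -0.17, -0.25, -0.11 and -0.30, and with replicate 2 above it, at 0.62, 0.51, 0.33 and 0.50. HMGCS1 and the members above 0 were chosen for naming after their values were seen.

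Genes of fatty acid synthesis leaned the same way. Of 16 tested, 8 were below 0 in all 16 values (5.54% of all genes) and 0 above (5.41% of all genes). The median interaction was -0.41 (-0.21 with replicate 1, -0.56 with replicate 2, -0.27 without the length trend). The median knockdown effect was 0.10 in the dish and -0.33 on the slice. SCD, the desaturase that makes monounsaturated fatty acids, had 12725 and 16685, then 15129 and 15121 on the slice with control shRNA, and 21555 and 14171, then 9452 and 6627 with L1CAM shRNA. Its dish groups overlapped, and both shL1CAM_slice libraries lay below all others. The interaction was -1.20 ± 0.35 (SE), at -0.94 and -1.45 with either replicate alone. FADS1, the delta-5 desaturase of polyunsaturated fatty acids, had 3518 and 3868, then 5139 and 5024, against 4258 and 3532, then 3288 and 2837, and an interaction of -0.81 ± 0.21 (SE). It was higher on the slice than in the dish in control cells and lower in L1CAM shRNA cells, although its exons overlap those of FADS2 on the other strand. ACLY, which makes the acetyl-CoA that both pathways use, had -0.66 ± 0.29 (SE), at -0.32 with replicate 1 alone and -0.99 with replicate 2. SREBF1, the regulator of fatty acid genes, had -0.45 ± 0.22 (SE), at -0.60 and -0.30. ELOVL1 and ELOVL6, elongases named after their values were seen, were the members above 0 as means, at 0.43 and 0.02. With replicate 1 alone they were 0.25 and 0.12, and with replicate 2 they were 0.61 and -0.09.

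**Figure D4:**
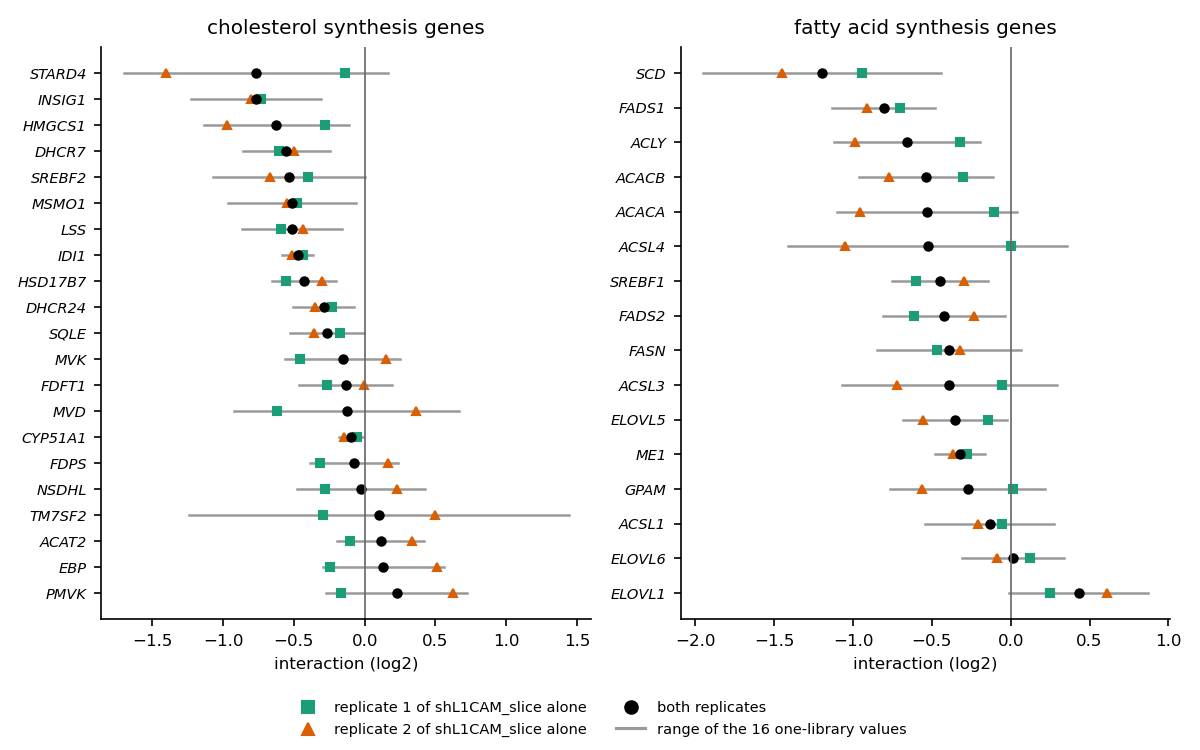
Interaction (log2, horizontal axis) of 21 tested genes of cholesterol synthesis (left) and 16 of fatty acid synthesis (right), from both shL1CAM_slice replicates (circles), replicate 1 alone (squares) and replicate 2 alone (triangles), with the range of the 16 single-library values as a grey line. The range lies wholly below 0 for 10 of 21 genes on the left and 8 of 16 on the right, with INSIG1 between -1.23 and -0.31 and SCD between -1.95 and -0.44.

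Stretches upstream of SCD and INSIG1 are shown as examples of lipid genes with a low interaction, with each CCAAT, the letters bound by the NF-Y factor that works beside SREBP, in capitals. They are the 250 bases before the RefSeq start on GRCh38.p14, plus strand, 5′ to 3′, at chr10:100346983-100347232 for SCD and chr7:155297628-155297877 for INSIG1. SCD holds 2 matches on the plus strand and INSIG1 holds 1 on the minus strand, which reads as ATTGG.
SCD: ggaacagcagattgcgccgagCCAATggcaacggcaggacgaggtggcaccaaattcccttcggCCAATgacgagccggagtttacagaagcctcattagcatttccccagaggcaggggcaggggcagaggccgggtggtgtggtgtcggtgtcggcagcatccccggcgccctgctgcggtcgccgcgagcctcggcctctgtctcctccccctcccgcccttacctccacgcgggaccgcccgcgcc
INSIG1: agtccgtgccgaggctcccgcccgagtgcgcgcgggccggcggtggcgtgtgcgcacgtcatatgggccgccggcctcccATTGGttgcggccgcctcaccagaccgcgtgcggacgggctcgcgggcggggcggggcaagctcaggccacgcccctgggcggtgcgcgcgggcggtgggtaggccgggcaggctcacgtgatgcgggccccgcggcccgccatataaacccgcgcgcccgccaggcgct
CCAAT on either strand was in 32.0% of the 35116 promoters over the same 250 bases, so a match by itself is common. TCACNCCAC, a form of the sterol regulatory element, was in 0.883% of them and in neither of these 2 stretches.

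The type I interferon response is the set of antiviral genes that interferon alpha and beta switch on through their receptor. Of 31 tested, 7 were below 0 in all 16 values (22.6%, against 5.54% of all genes) and 0 above (5.41% of all genes), with a median of -0.20 (-0.28 with replicate 1, -0.27 with replicate 2, -0.25 without the length trend). IFIT1, an antiviral factor, had 56.7 and 73.6, then 59.2 and 70.6 with control shRNA, and 164 and 157, then 61.8 and 75 with L1CAM shRNA. The shL1CAM_dish libraries stood above all others, and the other 3 groups overlapped. The interaction was -1.22 ± 0.32 (SE). SAMD9, another antiviral factor, had 304 and 158 in shL1CAM_slice against 371 to 469 elsewhere (-0.99 ± 0.39, SE), with an interaction of -0.52 from replicate 1 alone and -1.46 from replicate 2. OAS3, a sensor of double-stranded RNA, had -0.51 ± 0.27 (SE), at -0.23 with replicate 1 alone and -0.78 with replicate 2. GBP1, a guanylate-binding GTPase, had -0.43 ± 0.23 (SE). ISG15, ISG20, IRF7 and MX1, also of this response and chosen after their values were seen, had interactions from 0.22 to 0.59 with single-library values on both sides of 0. With replicate 1 alone these were -0.32, 0.18, 0.23 and -0.15, and with replicate 2 they were 0.75, 1.00, 0.75 and 0.59. Antigen presentation, which interferon also drives, had 0 of 18 above (5.41% of all genes) and 1 below 0 (5.54%) in all 16 values. Its median was -0.00, at -0.23 with replicate 1 alone and 0.26 with replicate 2. IL6R, the interleukin-6 receptor in the STAT3 list, had 413 and 372, then 530 and 525, against 289 and 251, then 253 and 174 (-0.79 ± 0.29, SE). It was -0.52 with replicate 1 alone and -1.06 with replicate 2. The 16 tested STAT3 genes held 0 above (5.41% of all genes) and 1 below 0 (5.54%) in all 16 values. Their median was -0.21, at -0.07 with replicate 1 alone and -0.30 with replicate 2.

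SMAD6 and SMAD7 are inhibitory SMADs that TGF-beta and BMP signals induce and that damp those signals. SMAD7 had 91.9 and 96.2, then 91.7 and 72.8 with control shRNA, and 99.9 and 103, then 52.6 and 39.3 with L1CAM shRNA. SMAD6 had 175 and 168, then 180 and 166, against 202 and 217, then 135 and 134. In both genes the shL1CAM_slice libraries were the lowest and the shL1CAM_dish libraries the highest, with interactions of -0.94 ± 0.32 and -0.64 ± 0.24 (SE). BMP2, a ligand of the pathway, had 39.1 and 28.3, then 48.7 and 38.5, against 8.24 and 14.1, then 43.4 and 30.9. It was low in the L1CAM shRNA dish libraries only, an interaction of 1.30 ± 0.49 (SE). Of 21 tested genes of the pathway 3 were above (5.41% of all genes) and 3 below 0 (5.54%) in all 16 values. The median was -0.05, at 0.04 with replicate 1 alone and -0.10 with replicate 2.

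Matrix genes had negative medians with the values as deposited. POSTN, the matricellular protein periostin, had 23.5 and 22.6, then 7.64 and 7.49 with control shRNA, and 38.5 and 28.1, then 3.69 and 3.57 with L1CAM shRNA, near the level of 3 reads in the last group. It was lower on the slice with either shRNA, and its interaction was -1.38 ± 0.47 (SE). COL4A3, a basement membrane collagen, had 6.85 and 5.66, then 11.5 and 7.49, against 17.4 and 18.1, then 8.30 and 5.95 (-1.73 ± 0.54, SE). The 18 tested laminins and basement membrane genes had a median of -0.27, at -0.22 with replicate 1 alone and -0.35 with replicate 2. Their median was 0.03 without the length trend, and in all 16 values 0 were above 0 (5.41% of all genes) and 2 below (5.54%). LTBP2, which binds microfibrils and latent growth factors, had -0.98 ± 0.43 (SE), with 515 and 286 in shL1CAM_dish and 177 to 295 elsewhere, so the groups overlapped. Of 18 tested interstitial matrix genes 5 were below (5.54% of all genes) and 1, COL17A1, above 0 (5.41%) in all 16 values. Their median was -0.32. That median was -0.38 with replicate 1 and -0.51 with replicate 2, and -0.10 without the length trend. Without that trend 2 members were below 0 throughout (6.34% of all genes).

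Among axon guidance genes, SEMA3E, a secreted semaphorin, had 22.5 and 17.0, then 10.5 and 10.7 with control shRNA, and 43.1 and 43.2, then 8.30 and 8.33 with L1CAM shRNA. All 16 of its values lay between -1.63 and -1.21. EFNA1, an ephrin ligand, had 0.55 ± 0.22 (SE). Over 31 tested genes of the list 2 were above (5.41% of all genes) and 1 below 0 (5.54%) in all 16 values. The median was -0.12, at -0.01 with replicate 1 alone and -0.17 with replicate 2.

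Several lists of short transcripts had higher medians with replicate 2 of shL1CAM_slice than with replicate 1. Cytosolic ribosomal protein genes, whose products form the ribosome that was captured, had a median interaction of 0.23 over 75 genes. As means 72 were above 0 (49.1% of all genes), but 1 was above 0 in all 16 values (5.41% of all genes). With replicate 1 the median was -0.13 and 31 members were below 0 in all its 8 values, against 15.1% of all genes. With replicate 2 the median was 0.60 and 73 members were above 0, against 33.4% of all genes. Their share of all signal was 9.10% in that library and 4.64% to 6.41% in the other 7. Mitochondrial ribosomal protein genes gave 0.25 with both replicates, -0.01 with replicate 1 and 0.48 with replicate 2. Nuclear genes of oxidative phosphorylation gave 0.25, -0.06 and 0.54, and proteasome subunits 0.19, 0.01 and 0.45. Without the length trend these 4 medians were 0.06, 0.10, 0.07 and 0.08.

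The reverse held for long transcripts. Giant cytoskeletal and scaffold proteins, with a median transcript of 16240 nt over 24 tested genes, had a median of -0.46, at 0.04 with replicate 1, -0.90 with replicate 2 and -0.05 without the length trend. AHNAK, a giant scaffold under the plasma membrane, had 2626 and 2213, then 1389 and 1591 with control shRNA, and 1210 and 1745, then 667 and 471 with L1CAM shRNA. Its interaction was -0.68 ± 0.32 (SE), at -0.43 with replicate 1 alone, -0.93 with replicate 2 and -0.26 without the length trend. In this list 5 genes were below (5.54% of all genes) and 0 above 0 (5.41%) in all 16 values. Without the length trend 3 were below (6.34% of all genes).

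**Figure D5:**
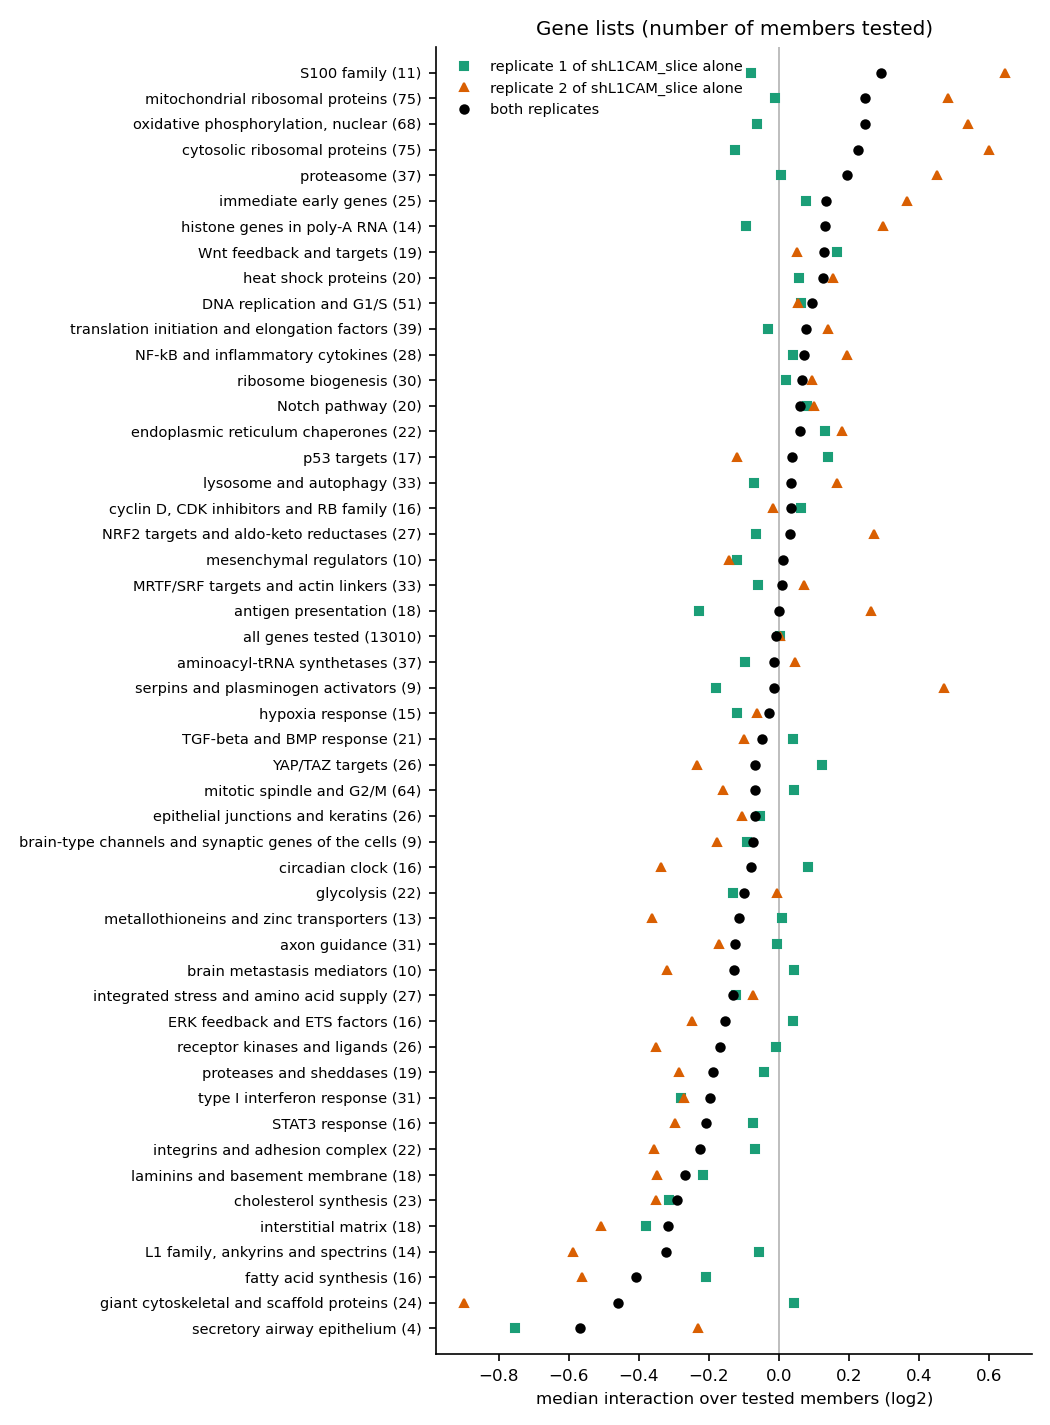
Median interaction (log2, horizontal axis) of 49 gene lists and of all genes tested, with the number of tested members in parentheses, for both shL1CAM_slice replicates (circles), replicate 1 alone (squares) and replicate 2 alone (triangles). The markers of cholesterol synthesis lie together at -0.29, -0.31 and -0.35, while those of cytosolic ribosomal proteins spread from -0.13 to 0.60.

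The lists of YAP/TAZ and MRTF/SRF targets had median interactions near that of all genes, -0.01. The 26 YAP/TAZ targets had a median slice response of -0.49 with control and -0.62 with L1CAM shRNA, and a median interaction of -0.07 (0.12 with replicate 1, -0.24 with replicate 2). Of these, 1 was above (5.41% of all genes) and 2 below 0 (5.54%) in all 16 values. AMOTL2, a YAP-binding angiomotin, had -0.41 ± 0.22 (SE), at -0.24 with replicate 1 alone and -0.59 with replicate 2. The receptor kinase AXL had -0.26 ± 0.19 (SE), and -0.13 without the length trend. AXL had 3446 and 3136, then 1660 and 1559 with control shRNA, and 3459 and 3411, then 1467 and 1349 with L1CAM shRNA, and was below all its dish libraries on the slice with either shRNA, by a slice response of -1.03 and -1.29. ANKRD1 had 102 and 65.1, then 10.5 and 7.49, against 29.3 and 49.2, then 6.46 and 7.14, with single-library interactions from -0.23 to 1.70.

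Of 33 MRTF/SRF targets and actin linkers 1 was above (5.41% of all genes) and 4 below 0 (5.54%) in all 16 values. Their median was 0.01, at -0.06 with replicate 1 alone and 0.07 with replicate 2. FHL2, a LIM-domain cofactor of SRF, had 2242 and 2395, then 3262 and 3316 with control shRNA, and 1185 and 1218, then 2364 and 3191 with L1CAM shRNA. It was lower with L1CAM shRNA in both cultures, less so on the slice (0.69 ± 0.23, SE). CNN3, a calponin, was the converse at -0.53 ± 0.20 (SE), with 3325 and 2770 in shL1CAM_slice and 3546 to 4237 elsewhere.

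Cell cycle genes lay lower on the slice than in the dish with either shRNA, as medians. The 64 spindle and G2/M genes had median slice responses of -1.05 and -1.13 with control and L1CAM shRNA. Their median interaction was -0.07, at 0.04 with replicate 1 alone and -0.16 with replicate 2. In all 16 values 4 were above 0 (5.41% of all genes) and 6 below (5.54%). The 51 replication and G1/S genes had median slice responses of -0.82 and -0.75. Their median interaction was 0.09, at 0.06 and 0.05 with either replicate alone. Of these, 4 were above (5.41% of all genes) and 0 below 0 (5.54%) in all 16 values. E2F1, the transcription factor of S-phase entry, had 637 and 622, then 600 and 553 against 636 and 689, then 799 and 841. Its shL1CAM_slice libraries were above all others and its interaction was 0.43 ± 0.20 (SE), 0.40 and 0.47 with either replicate alone.

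For some genes the slice response itself had opposite signs with the 2 shRNAs. Both slice libraries were above both dish libraries with control shRNA and below them with L1CAM shRNA for 75 genes (0.576%), and the reverse held for 59 (0.453%). Among those with a mean of at least 50, ranked by the smaller of the 2 mean responses in size, the leading ones were CORO2A, IMMP1L, CRNDE, MEF2C, FADS1 and SEMA3D. IMMP1L, a subunit of the mitochondrial inner membrane peptidase, had 112 and 115, then 93.6 and 79.2 with control shRNA, and 99.9 and 129, then 147 and 192 with L1CAM shRNA. MEF2C, a transcription factor of muscle and neurons, had 98.8 and 95.3, then 118 and 132, against 163 and 160, then 128 and 84.5. Antisense genes overlap MEF2C, so its reads may include theirs. SEMA3D, a secreted semaphorin, had 110 and 99.0, then 83.1 and 69.5, against 44.9 and 47.2, then 68.3 and 50. The interactions of these 3 were 0.95 ± 0.32, -0.99 ± 0.32 and 0.79 ± 0.33 (SE).

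Many interactions depended on 1 library, as 1217 genes differed by more than 1 on the log2 scale between the shL1CAM_slice replicates. The 5 that follow differed most among genes with a mean of at least 50. ZBED6, a transcription factor, had 473 and 451, 575 and 556, 405 and 359, and then 512 and 17.8 in the 2 replicates of shL1CAM_slice. Its interaction was 0.13 with replicate 1 alone and -4.63 with replicate 2. KIAA0754 had 308 and 15.5 in shL1CAM_slice (0.64 and -3.59 with either replicate alone), TMED8 225 and 15.5 (0.65 and -3.13), TTBK2 283 and 20.2 (0.42 and -3.32), and SGK196 104 and 8.33 (0.77 and -2.72). In each of these 5 the first replicate lay near or above the other groups and the second under every other library. ZBED6 shares exons with ZC3H11A on its own strand, so its count depends on how shared reads were assigned. Exons of other genes also overlap those of TTBK2, on both strands, and of KIAA0754, on the other strand. KIAA0754 was looked up under the name MACF1. Reads of overlapping genes cannot be told apart in these counts.

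At the lower limit of the filter, CYGB and S100A3 had means just above 10 and interactions of 0.51 and 1.52, CYGB at 0.09 with replicate 1 alone and 0.93 with replicate 2, and REP15 and ZNF600, just under it and not tested, had 0.97 and -0.52. The capture was checked against brain cell markers. The sums of those markers that were low in the dish were 7.54 to 19.2 normalized counts for neurons, 0 to 8.59 for astrocytes, 7.54 to 29.5 for oligodendrocytes, 9.43 to 22.1 for microglia and macrophages, and 24.8 to 39.3 for endothelial and mural cells. SLC17A6, THY1, S100B, MOG, OLIG2, P2RY12, C1QA, C1QB, C1QC, TREM2 and KCNJ8 were at 0 in all 8 libraries. The submitters' processing notes name human builds only, so these sums bear on mouse RNA only where a mouse read can match a human gene. The lung surfactant marker SFTPA1 was at 0 as well, and SFTPB, SFTPC, NAPSA, KRT7 and KRT19 were low. Thus 6 of 12 markers of lung adenocarcinoma epithelium were low or at 0 in these cells. Of the others, KRT8 and KRT18 were at 3460 to 6002 normalized counts in the 8 libraries, MUC1 at 258 to 1081 and EPCAM at 78.3 to 169. CDH1 was at 21.0 to 33.2 and NKX2-1 at 3.21 to 16.5.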

How the data were processed

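The authors deposited a single table of normalized signal, 1 value per gene symbol and library, for 8 libraries of RNA from EGFP-tagged ribosomes. Per the submitters' processing notes, FastQC 0.11.3, HTSeq 0.5.4 and DESeq2 (no version) were used with hg19 and GRCh37. Which aligner and annotation were used is not given in the sources used here. Values in every column were whole multiples of 1 step within 1e-06, as whole reads scaled by a single size factor for each library would be, and the reads were recovered. Per the labels, libraries were made with TruSeq RNA Sample Prep Kit v2, which does not mark strand, and 0 columns were left unused.

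The interaction was fitted with limma 3.58.1 in R 4.3.3 on log2(value + 1) for genes with a mean of at least 10, with 4 group means over all 8 libraries, eBayes with an intensity trend, two-sided tests and Benjamini-Hochberg adjustment at 0.05. Differences of low genes are understated on this scale. edgeR 4.0.16 and DESeq2 1.42.0 were run on the recovered reads. The fit was also run on simulated data. No settings or outcome of that run are given here, so nothing about the fit to these libraries is concluded from it. Transcript lengths came from GENCODE v29 (12470 of 13010 genes, 95.8%) and promoters from RefSeq on GRCh38.p14. Exon overlaps were looked up in GENCODE v29 for 31 named genes, of which 10 had one.

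Genes were named by a rule: L1CAM; the 12 highest and 12 lowest by the single-library value closest to 0 with a mean of at least 50; 6 with opposite slice responses; up to 4 members per list by smallest p; 5 whose replicates of shL1CAM_slice differed most; and 4 around the filter. Symbols starting with LOC, MIR or SNOR were skipped. Members, rule and the 49 lists were chosen with earlier results of these data known, so no list is independent evidence. Lists are described by counts and medians, without a test. Some items are not reported here by name, and 2 genes of cholesterol synthesis were left out of the plot of lipid genes but kept in the counts.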

Additional observations from a re-analysis of the deposited data

How the results depend on the processing

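The count of genes past the threshold was 0 in the reported fit and in each of the 12 alternatives that kept all libraries (edgeR, DESeq2, a removed length trend, library weights, robust eBayes, a replicate block, scaling by TMM or upper quartile, a pseudocount of 10 or 0.25, and a filter at a mean of 50 or none). With a library left out it ranged from 0 to 4136 (0 to 1796 higher, 0 to 2340 lower), and it differed from 0 only without shL1CAM_slice replicate 1. The replicate block, a fit with the replicate number as a term, called 0 genes. Replicate differences of different groups correlated over genes at -0.377 to 0.194. No label pairs the replicate numbers, and these correlations cannot decide whether samples were paired. Genes named for their single-library value closest to 0 have all such values on one side, so leaving out a library cannot change their sign. List members were named by smallest p, and some genes because their shL1CAM_slice replicates differed most. The count of sign changes among named genes is therefore partly set by that choice and does not describe genes in general. Over 213 named genes and 20 alternatives, 14 interactions changed sign, all without shL1CAM_slice replicate 2. Without replicate 1 and without replicate 2 of that group they were ZBED6 -4.63 and 0.13, KIAA0754 -3.59 and 0.64, TMED8 -3.13 and 0.65, TTBK2 -3.32 and 0.42, SGK196 -2.72 and 0.77, DSG2 -1.42 and 0.023, ZEB1 -1.02 and 0.071, RB1 -0.92 and 0.062, RBL1 -1.05 and 0.14, HIST1H1C 0.82 and -0.082, SLC30A1 -1.37 and 0.059, SLC39A14 -0.74 and 0.0099, NOTCH2 -1.26 and 0.085 and RFNG 0.86 and -0.0052. The cause was not tested. List counts per replicate and without the length trend were chosen after seeing the data. With 2 libraries per group, interactions of the size of the median SE, 0.29, could not be told from 0. Larger ones did not pass either, such as FAM83A at 2.04 ± 0.44 (SE), so the absence of calls does not exclude them.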

Other observations

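Gene groups not described above include stress and detoxification genes. AKR1C2, an aldo-keto reductase, had normalized counts of 4.89 and 5.66, then 4.77 and 3.21 on the slice with control shRNA, and 19.2 and 17.1, then 33.2 and 36.9 with L1CAM shRNA. It was higher with L1CAM shRNA in both cultures, more so on the slice (1.26 ± 0.49, SE), and near-identical paralogs make its assignment uncertain. The 27 tested NRF2 targets and aldo-keto reductases had 1 member above (5.41% of all genes) and 2 below 0 (5.54%) in all 16 values. Their median was 0.03, at -0.07 with replicate 1 alone and 0.27 with replicate 2. GDF15, a stress-induced cytokine in the p53 list, had 28.4 and 22.6, then 35.3 and 58.8 with control shRNA, and 10.1 and 10.0, then 34.1 and 44.0 with L1CAM shRNA (1.02 ± 0.46, SE). Of 17 tested p53 targets 3 were above (5.41% of all genes) and 0 below 0 (5.54%) in all 16 values. Their median was 0.04, and it changed sign between 0.14 with replicate 1 alone and -0.12 with replicate 2. WIPI1, an autophagy protein, had 30.3 and 34.0, then 129 and 104, against 43.1 and 36.1, then 75.6 and 79.7 (-0.86 ± 0.32, SE). The 33 tested lysosome and autophagy genes had a median of 0.04, at -0.07 with replicate 1 alone and 0.17 with replicate 2. None of these genes passed the test.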
